A study of Mus musculus with 12 samples.

Results

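The mTOR kinase sits at the centre of a pathway by which cells match growth to nutrients and growth factors. It works in a pair of complexes: mTORC1, which is defined by raptor, and mTORC2, which is defined by rictor, and both contain the subunit mLST8. The TSC1-TSC2 complex keeps the small GTPase Rheb inactive, active Rheb switches mTORC1 on, and mTORC1 then phosphorylates S6 kinase and the 4E-BP repressors of cap-dependent translation. In the ovary this pathway is known for its part in awakening primordial follicles and in oocyte growth. The 10 genes described here, out of 24562 in the deposited table, were chosen by name as the genes that encode these core proteins: Mtor, Rptor, Rictor, Mlst8, Tsc1, Tsc2, Rheb, Rps6kb1, Eif4ebp1 and Eif4ebp2. All 10 were found in the table, and all 10 passed the filter on low counts.

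RNA-Seq had been performed on 12 pools of oocytes from antral follicles of CD-1 mice that had received no gonadotropins, with 3 pools in each of 4 cohorts and 18 to 45 oocytes in a pool. The cohorts were postnatal day (PND) 13, PND 40, and PND 16 animals divided by body weight into PND 16 small and PND 16 large. CD-1 is an outbred strain, and the labels name no transgene and no treatment for any cohort. The study describes oocytes of PND 13 and PND 16 small mice as meiotically non-competent, that is, largely lacking the ability to mature to metaphase II in vitro, and those of PND 16 large and PND 40 mice as competent. It places PND 16 large oocytes below PND 40 oocytes in quality. The maturation data behind the division by weight at PND 16 were not shown in the study, which gives the small number of animals as the reason. Competence was a property of the cohort and not of the single pool, and it cannot be told apart from body weight at PND 16, where both cohorts have the same age, or from age and weight in the other comparisons. The p-values set a difference against the spread between pools, and fewer cells of a type and less RNA per cell cannot be told apart in them. Tests between the competence groups treat the pools of the cohorts in a group as alike, so their p-values do not speak for competence as such.

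The total count ranged from 17671193 to 27418358 per pool. A sum over 12 oocyte markers was 15554 to 19977 CPM (counts scaled to a common total) in every pool. A sum over 14 granulosa and cumulus cell markers was 178 to 218 CPM in the 6 competent pools, and in the 6 non-competent pools it ranged from 144 to 746 CPM. It stood above 600 CPM in 3 of them, PND 13 pools 1 and 3 and PND 16 small pool 2. All 14 of these markers had counts in every pool, with Amh at 0.389 to 33.5 CPM and Foxl2 at 0.391 to 20.0 CPM. Nr5a2 had 87.9 to 146 CPM and made up a large part of the sum in the pools with low sums. Which cells its reads came from was not tested. In competent vs. non-competent pools Cyp19a1 (log2 change 0.14) and Cyp11a1 (0.69) went up without being called, and all the other markers of this list went down. The 9 theca and stroma markers summed to 6.21 to 46.9 CPM, and Cyp17a1 was at 0 in 7 pools. The 6 blood and endothelial markers summed to 52.2 to 64.6 CPM, nearly all of it Pecam1 (52.0 to 64.6 CPM), with Ptprc at 0 to 1.34 CPM and Hbb-bs and Hba-a1 at 0 in all 12 pools. Reads on the ribosomal precursor Rn45s made up 1.46% to 2.98% of counts in non-competent and 0.520% to 0.954% in competent pools. Beside the results below, values are given without the 3 pools above 600 CPM or with the granulosa marker level as a covariate in the model. The part of Rn45s in the results was not tested.

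To ask which of the 10 genes changed with competence, the 6 competent pools were compared with the 6 non-competent pools. Rptor and Mlst8 fell, by 0.90 ± 0.12 and 0.67 ± 0.20 on the log2 scale (± SE here and below), and no member rose by the study's criteria, an adjusted p not above 0.05 together with a change of 1.5-fold or more. So 2 of 10 genes were called, both lower, where 15% of the 13943 genes tested were called, 11.2% of them lower and 3.78% higher. By the adjusted p alone 8 of 10 genes passed, 7 lower and 1 higher, against 30.7% of all genes tested, with 16.5% lower and 14.2% higher. The median log2 fold change of the 10 genes was -0.37, beside -0.0046 over all genes tested. The levels of 4 genes, Rptor, Tsc1, Tsc2 and Rheb, did not overlap between the groups of pools, as for 14.7% of all genes tested. Without the 3 pools above 600 CPM of granulosa markers, a choice made after seeing the data, 1 gene (Rptor) was called, beside 10.7% of all genes tested in that fit, and 4 of 10 passed by the adjusted p alone (Rptor, Mtor, Tsc1 and Rheb). With the granulosa marker level as a covariate, Rptor (-0.96) and Mlst8 (-0.75) were called, beside 11.9% of all genes tested in that fit, and 6 passed by the adjusted p alone. When single pools were left out, 7 to 8 passed by the adjusted p alone. The shares of all genes passing by the adjusted p alone in these alternative fits are not given here.

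**Figure D1:**
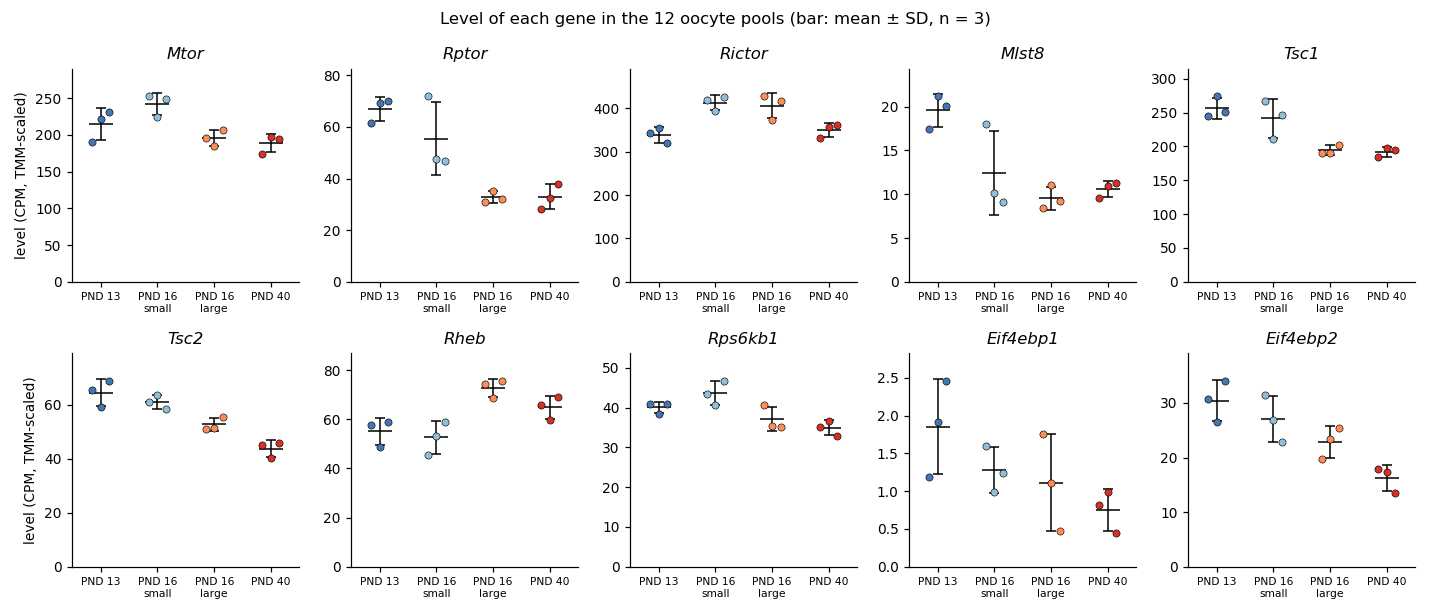
Level of each gene in CPM (scaled by TMM, y axes from 0) in the 12 oocyte pools, by cohort on the x axis. Points are pools and bars are the mean ± SD of 3 pools. Rptor lies between 47.0 and 71.9 CPM in non-competent pools and between 28.3 and 38.1 CPM in competent pools, and Rheb lies higher in all 6 competent pools.

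**Figure D2:**
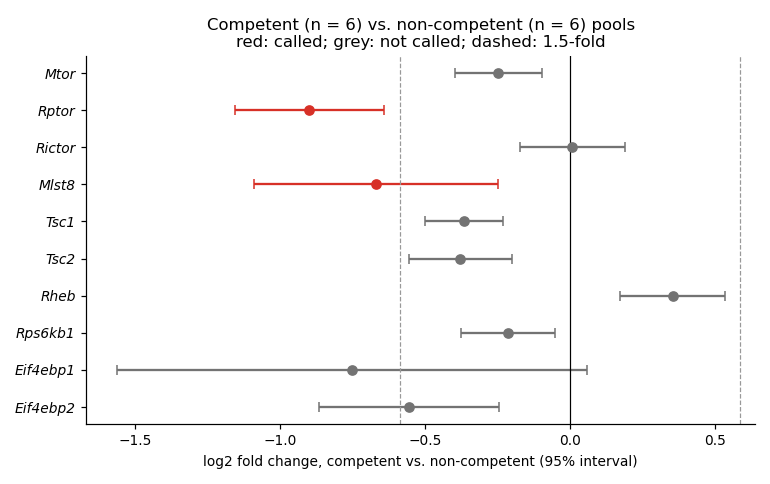
Log2 fold change of each gene in competent vs. non-competent oocytes (x axis), with its 95% interval, from 6 pools per group. Red points are called genes, grey points are not called, and dashed lines mark a 1.5-fold change. Rptor and Mlst8 are the red points, at -0.90 and -0.67, and Rheb is at 0.35.

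Rptor encodes raptor, the scaffold that brings substrates to mTORC1 (GRCm38 chromosome 11, 119602905 to 119899576, plus strand, 34 exons in its longest transcript). Its level was 61.7, 69.4 and 70.1 CPM in the PND 13 pools and 71.9, 47.7 and 47.0 CPM in the PND 16 small pools. In the PND 16 large pools it was 30.8, 35.4 and 32.2 CPM, and in the PND 40 pools 28.3, 32.5 and 38.1 CPM. All 6 competent pools lay below all 6 non-competent pools, and PND 16 small pool 1 stood at the level of PND 13 while the other PND 16 small pools stood between. The competent pools had 1.87-fold less (32.9 ± 3.44 vs. 61.3 ± 11.4 CPM, SD, n = 6 each, adjusted p = 0.000133 by edgeR's quasi-likelihood test). Without the 3 pools of highest granulosa sum the log2 change was -0.93 (adjusted p = 0.00118).

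Mlst8 encodes mLST8, a WD-repeat subunit that binds the mTOR kinase domain in both complexes (chromosome 17, 24473551 to 24479078, minus strand, 8 exons). Its level was 17.4, 21.2 and 20.1 CPM at PND 13, and 18.0, 10.1 and 9.13 CPM in PND 16 small pools. It was 8.39, 11.0 and 9.20 CPM in PND 16 large pools and 9.61, 10.9 and 11.2 CPM at PND 40. PND 13 and PND 16 small pool 1 were high, whereas PND 16 small pools 2 and 3 lay within the range of the competent pools, so the groups overlapped. The competent pools had 1.59-fold less (adjusted p = 0.0193, edgeR). This call was lost without the 3 pools of highest granulosa sum (log2 change -0.68, adjusted p = 0.0553) and without PND 13 pools 1 and 3 (-0.54, adjusted p = 0.115), and it was kept with the granulosa marker level as a covariate (-0.75, adjusted p = 0.0354). The exons of Mlst8 share 997 bases, 22.5% of their length, with Bricd5 on the opposite strand. Bricd5 itself had 0 to 5 counts in each pool, while Mlst8 had 154 to 542, and the strand setting of the counting is not given in the sources used here.

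Mtor encodes the kinase itself (chromosome 4, 148448611 to 148557683, plus strand, 58 exons). Its level was 190.4, 222 and 232 CPM at PND 13 and 252, 225 and 249 CPM in PND 16 small pools. In PND 16 large pools it was 196, 185 and 207 CPM, and at PND 40 it was 174, 197 and 194 CPM. The ranges of the groups overlapped, with PND 16 small highest. Mtor was lower in competent pools by a log2 fold change of -0.25 ± 0.07 (adjusted p = 0.0155, edgeR), which is short of 1.5-fold.

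Rictor encodes the defining subunit of mTORC2, the complex that phosphorylates Akt (chromosome 15, 6708379 to 6800401, plus strand, 38 exons). Its level was 343, 354 and 319 CPM at PND 13 and 420.3, 394 and 426 CPM in PND 16 small pools. It was 428, 374 and 418 CPM in PND 16 large pools and 331, 356 and 362 CPM at PND 40. The PND 16 cohorts were both high and PND 13 and PND 40 both low, so that the competence groups covered the same range. The log2 difference was 0.01 (95% interval -0.17 to 0.19, adjusted p = 0.953, edgeR), an interval that leaves out a 1.5-fold change in either direction, and its sign turned under several alternative settings.

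Tsc1 encodes hamartin, which stabilises the TSC complex (chromosome 2, 28641228 to 28691167, plus strand, 23 exons). Its level was 245, 274 and 251 CPM at PND 13 and 267, 210.3 and 247 CPM in PND 16 small pools. It was 191, 191 and 202 CPM in PND 16 large pools and 184, 197 and 195 CPM at PND 40. Every competent pool was below every non-competent pool, and the competent pools lay close together (193 ± 6.48 CPM, SD, n = 6). The log2 fold change was -0.36 ± 0.06 (adjusted p = 0.000721, edgeR), or 1.29-fold lower, short of the fold criterion.

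Tsc2 encodes tuberin, whose GTPase-activating domain acts on Rheb (chromosome 17, 24595816 to 24632630, minus strand, 41 exons). Its level was 65.6, 59.1 and 68.6 CPM at PND 13 and 60.9, 63.6 and 58.3 CPM in PND 16 small pools. It was 51.1, 51.4 and 55.5 CPM in PND 16 large pools and 45.0, 40.3 and 45.9 CPM at PND 40. The groups did not overlap, and all PND 40 pools were also below all PND 16 large pools. The log2 fold change was -0.38 ± 0.08 (1.30-fold lower, adjusted p = 0.00358, edgeR), and without the 3 pools of highest granulosa sum it was -0.30 (adjusted p = 0.0720). Tsc2 exons share 693 bases, 7.2% of their length, with Pkd1 on the opposite strand, and Pkd1 had a log2 difference of -0.42 ± 0.17 (adjusted p = 0.0783).

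Rheb encodes the GTPase that activates mTORC1 (chromosome 5, 24802823 to 24842624, minus strand). It was the member whose level was higher in competent pools by the adjusted p. Its level was 57.6, 48.8 and 58.9 CPM at PND 13 and 45.7, 53.4 and 59.0 CPM in PND 16 small pools. It was 74.3, 68.6 and 75.5 CPM in PND 16 large pools and 66.0, 59.7 and 68.9 CPM at PND 40. All competent pools lay above all non-competent pools, although the lowest competent pool, at 59.7 CPM, was just above the highest non-competent pool, at 59.0 CPM. The log2 fold change was 0.35 ± 0.08 (1.28-fold, adjusted p = 0.00594, edgeR), short of 1.5-fold. Without the 3 pools of highest granulosa sum it was 0.43 (adjusted p = 0.0158).

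Of the 3 genes for targets of mTORC1, none was called by competence with edgeR, and 2 passed by the adjusted p alone. DESeq2 and limma called none of them either, and by edgeR's unadjusted p the same 2, Rps6kb1 and Eif4ebp2, were under 0.05. Rps6kb1 encodes S6 kinase 1 (chromosome 11, 86498871 to 86544805, minus strand, 15 exons). It was 40.9, 38.4 and 40.9 CPM at PND 13, 43.5, 40.7 and 46.6 CPM in PND 16 small pools, 40.7, 35.5 and 35.2 CPM in PND 16 large pools, and 35.1, 36.7 and 32.9 CPM at PND 40. PND 16 large pool 1 lay within the non-competent range and the other competent pools lay below it, and the log2 fold change was -0.22 ± 0.08 (adjusted p = 0.0446, edgeR). Without the 3 pools of highest granulosa sum the change was about as large (-0.24) and the adjusted p was 0.117, and the adjusted p was also above 0.05 in 9 of the 12 fits that left out a single pool.

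Eif4ebp2 encodes 4E-BP2 (chromosome 10, 61428491 to 61452661, minus strand, 3 exons). It was 30.8, 26.5 and 34.0 CPM at PND 13, 31.4, 26.8 and 22.9 CPM in PND 16 small pools, 19.8, 23.4 and 25.4 CPM in PND 16 large pools, and 18.0, 17.3 and 13.4 CPM at PND 40. PND 40 was lowest, with all its pools below every other pool, and PND 16 large overlapped PND 16 small. The log2 fold change with competence was -0.56 ± 0.15 (1.47-fold lower, adjusted p = 0.0104, edgeR), just short of 1.5-fold. Without the 3 pools of highest granulosa sum it was -0.46 (adjusted p = 0.109).

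Eif4ebp1 encodes 4E-BP1 (chromosome 8, 27260329 to 27276674, plus strand, 3 exons), and it was the least abundant member at 12 to 60 counts per pool. It was 1.19, 1.91 and 2.46 CPM at PND 13, 1.60, 0.995 and 1.25 CPM in PND 16 small pools, 1.76, 1.10 and 0.478 CPM in PND 16 large pools, and 0.815, 0.996 and 0.441 CPM at PND 40. The pools of a cohort differed up to several-fold and the groups overlapped. The log2 difference was -0.75 (95% interval -1.56 to 0.06, adjusted p = 0.147, edgeR). The interval includes both no change and a change of more than 1.5-fold.

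Levels of different genes were compared per kilobase of exon. Over the 12 pools Rictor had 22.3 CPM per kb of union exon, Mtor 20.8 and Tsc1 18.7, which were the highest pooled values among the members. Rheb had 7.95, Tsc2 5.76, Rps6kb1 4.50, Eif4ebp2 4.17, Rptor 3.49, Mlst8 2.94 and Eif4ebp1 0.569 CPM per kb of union exon. The order differed between cohorts. At PND 13 Tsc1 (21.7 ± 1.30 CPM per kb, SD, n = 3), Mtor (21.2 ± 2.13) and Rictor (20.0 ± 1.05) lay within each other's spread, whereas in PND 16 large pools Rictor (24.01 ± 1.69), Mtor (19.4 ± 1.11) and Tsc1 (16.4 ± 0.577) stood apart by more than their SDs. By the mean over union exons Rictor was highest and Tsc1 lowest of these 3 in each cohort other than PND 13. The SDs of Rictor and Mtor overlapped in PND 16 small pools (24.4 ± 1.02 and 23.9 ± 1.49) and at PND 40 (20.7 ± 0.980 and 18.7 ± 1.23). Rptor (4.98 ± 0.349) and Eif4ebp2 (5.26 ± 0.653) were within their spread at PND 13, and in PND 16 large pools Rptor (2.43 ± 0.173) was below Eif4ebp2 (3.95 ± 0.494). With the longest transcript as the length, Rictor had 40.5, Tsc1 28.7 and Mtor 24.5 CPM per kb. By this length the means of these 3 stood in that order in every cohort, so the place of Tsc1 and Mtor depends on the length used. Rptor, at 7.14, moved ahead of Rps6kb1, at 7.04, and Eif4ebp2, at 4.17.

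The promoters of the members that were called lower, Rptor and Mlst8, and of Rheb, which was higher by the adjusted p alone, are shown. RefSeq promoter sequences (GRCm38.p6, 250 bases before to 50 after the annotated start) were found for 9 of the 10 members, and the bases before the start are printed 5′ to 3′ on the gene's own strand. Capitals mark the searched words, which are the E-box CACGTG, the word CCAAT of the CCAAT box, the GC box GGGCGG and the homeodomain core TAATTG, on either strand, each counted whether or not it overlapped another.
Rptor promoter (chr11:119602655-119602904, plus strand): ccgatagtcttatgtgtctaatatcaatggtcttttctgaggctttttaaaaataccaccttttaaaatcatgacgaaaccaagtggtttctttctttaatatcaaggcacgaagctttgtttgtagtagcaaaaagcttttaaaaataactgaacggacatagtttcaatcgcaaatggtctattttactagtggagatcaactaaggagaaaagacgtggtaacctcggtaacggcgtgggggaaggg
Mlst8 promoter (chr17:24479079-24479328, minus strand): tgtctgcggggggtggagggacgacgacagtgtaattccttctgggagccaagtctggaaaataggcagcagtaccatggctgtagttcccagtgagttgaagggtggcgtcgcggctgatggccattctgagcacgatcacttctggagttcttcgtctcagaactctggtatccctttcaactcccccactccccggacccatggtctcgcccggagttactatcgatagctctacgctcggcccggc
Rheb promoter (chr5:24842362-24842611, minus strand): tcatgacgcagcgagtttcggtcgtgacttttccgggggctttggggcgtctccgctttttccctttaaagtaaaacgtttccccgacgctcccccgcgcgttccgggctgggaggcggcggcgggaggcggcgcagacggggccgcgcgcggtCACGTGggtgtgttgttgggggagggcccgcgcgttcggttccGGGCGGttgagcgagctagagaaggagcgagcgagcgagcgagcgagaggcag
In the 300-base windows Rptor and Mlst8 held none of the 4 words, and Rheb held an E-box at position -96 and a GC box at -53 from the RefSeq start. The GENCODE span of Rheb reaches further 5′, to 24842624, so its printed bases and both words lie inside that span. For Rheb they are thus before the start by RefSeq only. Among the 9 members with a promoter, 1 held the E-box, 2 the CCAAT box, 4 the GC box and 0 the homeodomain core. The GC box was also in Mtor and Eif4ebp2, which were lower by the adjusted p alone, and in Rictor. Mtor and Rictor held the CCAAT box. Tsc1, Tsc2 and Rps6kb1, also lower by the adjusted p alone, held none of the 4 words. Of all 32851 promoters, 7.15% held the E-box, 37.4% the CCAAT box, 35.7% the GC box and 8.0% the homeodomain core. These matches are a description of the letters only.

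The 6 pairwise comparisons of cohorts were fitted in a single model. They share pools, so their values are given side by side. PND 16 large vs. PND 13 oocytes had 2 members called, Rptor and Mlst8, both lower, where 13.3% of genes tested were called. By the adjusted p alone 6 members passed, 4 lower and 2 higher (Rictor and Rheb), against 25.6% of genes. Rptor fell 2.05-fold (log2 change -1.03 ± 0.16, adjusted p = 0.00083, edgeR) and Mlst8 fell 2.05-fold as well (-1.04 ± 0.22, adjusted p = 0.00517). Rheb was higher by 0.40 ± 0.11 (adjusted p = 0.0171) and Rictor by 0.26 ± 0.07 (adjusted p = 0.0162), each under 1.5-fold.

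PND 40 vs. PND 13 oocytes had 3 members called, all lower, against 18.9% of genes. Rptor fell by 1.03 ± 0.16 on the log2 scale (adjusted p = 0.000405, edgeR), Mlst8 by 0.88 ± 0.22 (adjusted p = 0.00849) and Eif4ebp2 by 0.90 ± 0.16 (adjusted p = 0.000954). By the adjusted p alone 5 members passed, all lower, against 33.1% of genes, with Tsc1 (-0.42 ± 0.08) and Tsc2 (-0.56 ± 0.09) the further 2. For Rheb the value was 0.24 ± 0.11 (adjusted p = 0.117) and for Eif4ebp1 -1.30 ± 0.53 (adjusted p = 0.0755).

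Within the same age, PND 16 large vs. PND 16 small oocytes had 1 member called, Rptor, against 6.19% of genes. Rptor fell 1.69-fold (-0.76 ± 0.16, adjusted p = 0.00945, edgeR). The call was lost in some fits that left out a single pool. Without PND 16 small pool 1 the change was -0.53, under 1.5-fold, and 5.67% of all genes tested were called. Without PND 16 large pool 1 it was -0.72, about as large, with an adjusted p of 0.0584 (edgeR). In that fit the share of all genes called was 2.33%. By the adjusted p alone Rheb was higher (0.47 ± 0.11, adjusted p = 0.0173) and Mtor and Tsc1 were lower (-0.31 ± 0.09 and -0.31 ± 0.08), which with Rptor made 4 members, against 12.3% of genes. Mlst8 had a value of -0.38 ± 0.22 (adjusted p = 0.287).

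PND 40 vs. PND 16 small oocytes had 2 members called, both lower, against 17.2% of genes. Rptor fell by 0.75 ± 0.16 (adjusted p = 0.0033, edgeR) and Eif4ebp2 by 0.74 ± 0.16 (adjusted p = 0.00397) on the log2 scale. Without PND 16 small pool 1 the change of Rptor was -0.52, and Eif4ebp2 was the single member called, beside 17.8% of all genes tested in that fit. By the adjusted p alone 7 members passed, all lower, against 30.2% of genes, and these included Tsc2 (-0.48 ± 0.09), Mtor (-0.36 ± 0.09) and Rictor (-0.24 ± 0.07).

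No member was called by edgeR in PND 16 small vs. PND 13 oocytes, where 0.373% of genes were called and 0.925% passed by the adjusted p alone. At an unadjusted p under 0.05 there were 2, Mlst8 (-0.65 ± 0.22) and Rictor (0.29 ± 0.07), and DESeq2 and limma each called 0. Without PND 16 small pool 1 Mlst8 fell by 1.02 ± 0.17 (adjusted p = 0.00436), so this pool decided the call. Leaving it out also raised the share of all genes called from 0.373% to 5.7%. No member was called by edgeR in PND 40 vs. PND 16 large oocytes either, where 3.66% of genes were called and 6.83% passed by the adjusted p alone. There 3 had an unadjusted p under 0.05, Tsc2 (-0.27 ± 0.09), Rictor (-0.22 ± 0.07) and Eif4ebp2 (-0.49 ± 0.16), and DESeq2 and limma each called 0. The value for Rptor was 0.01 (95% interval -0.33 to 0.35), which leaves out a 1.5-fold change.

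**Figure D3:**
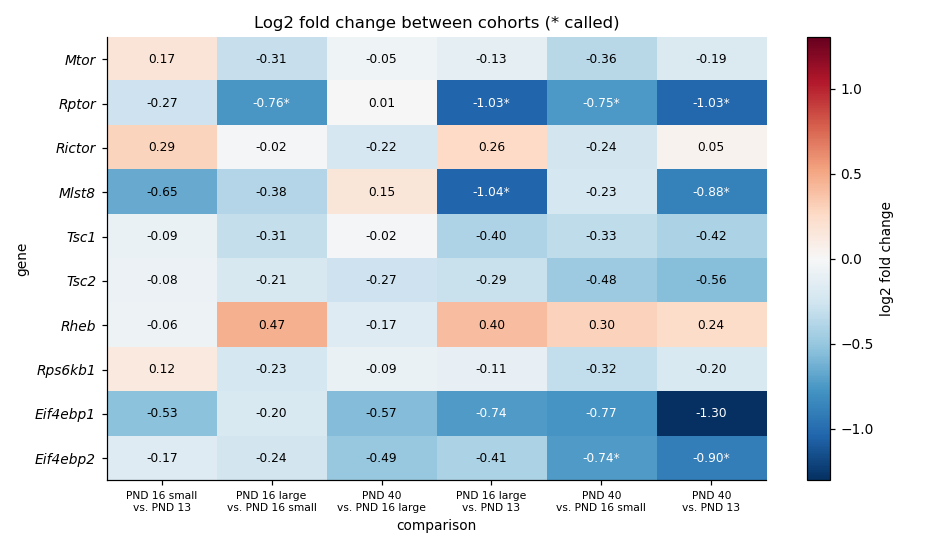
Log2 fold change of each gene (rows) in the 6 comparisons of cohorts (columns), from a model of the 4 cohorts with 3 pools each. Red is higher and blue is lower in the first cohort named, and an asterisk marks a called gene. Rptor is called in 4 columns, and no gene is called in PND 16 small vs. PND 13 or PND 40 vs. PND 16 large.

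Ratios of counts of partner genes within a pool do not depend on the scaling between pools, and 4 were tested with an exact two-sided permutation test of 6 vs. 6 pools, for which the smallest possible p is 0.00216. The ratio of Rptor to Rictor, the defining subunits of mTORC1 and mTORC2, was 0.180, 0.196 and 0.220 at PND 13 and 0.171, 0.121 and 0.110 in PND 16 small pools. It was 0.0721, 0.0946 and 0.0770 in PND 16 large pools and 0.0855, 0.0913 and 0.105 at PND 40. The groups did not overlap, and the log2 ratio was lower in competent pools by 0.89 (mean of -3.52 ± 0.20 vs. -2.63 ± 0.40, SD, n = 6 each, exact permutation p = 0.00216, adjusted over the 4 ratios 0.00866). Counts also scale with transcript length, so this is not a molar ratio. The log2 change was -0.90 for Rptor and 0.01 for Rictor, so the ratio is not a result separate from that of Rptor.

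The other ratios did not pass. Mtor to Mlst8 was 10.5 to 11.5 in PND 13 pools, 14.0, 22.1 and 27.2 in PND 16 small pools, and 16.7 to 23.3 in competent pools. PND 13 pools thus lay below all others, and the competence groups overlapped (log2 difference 0.36, exact permutation p = 0.165, adjusted 0.329). Tsc1 to Tsc2 had a log2 difference of 0.02 (exact permutation p = 0.827, adjusted 0.827), with values of 3.31 to 4.63 in non-competent and 3.65 to 4.89 in competent pools. Eif4ebp1 to Eif4ebp2 had a log2 difference of -0.26 (exact permutation p = 0.489, adjusted 0.652), with the widest spread in PND 16 large pools.

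**Figure D4:**
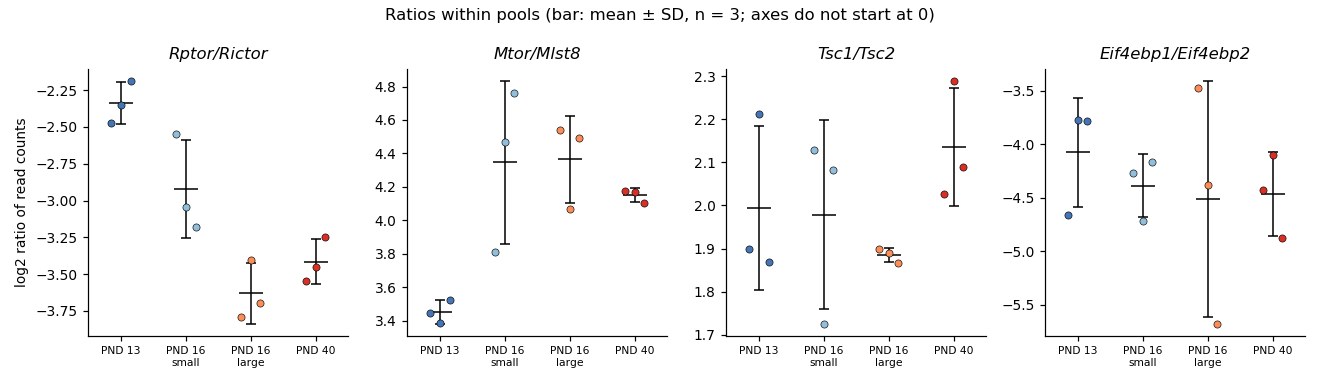
Log2 ratio of the read counts of 4 pairs of partner genes in each pool, by cohort on the x axis. Points are pools, bars are the mean ± SD of 3 pools, and the y axes do not start at 0. The Rptor to Rictor ratio lies at or below -3.25 in all competent pools and at or above -3.18 in all non-competent pools.

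Across the 12 pools the levels of Rptor and Tsc1 (log2 CPM) had a Pearson r of 0.94, Tsc2 and Eif4ebp2 0.90, and Rptor and Mlst8 0.88. Rheb had negative values with the others, down to -0.81 with Rptor, apart from Rictor at 0.09. These values share the cohort differences and the libraries, and are given as a description. Among 11938 other genes whose mean reached 1 CPM, the pattern of Rptor was most like those of Zfp395 (r = 0.986) and Zfp263 (0.981), and that of Mlst8 most like Pex5 (0.987) and Dbnl (0.978). Tsc1 was most like Alkbh4 (0.986) and Tob1 (0.979), Tsc2 like Lgr4 (0.979) and Tmem64 (0.972), and Eif4ebp2 like Rab24 (0.979) and Frmd6 (0.973). For Mtor they were Abcc5 (0.966) and Ap2b1 (0.940), for Rictor 5530601H04Rik (0.943) and Polr3a (0.939), for Rheb Swi5 (0.918) and Lyar (0.917), for Rps6kb1 Tmf1 (0.921) and Sez6l2 (0.918), and for Eif4ebp1 Lancl2 (0.870) and Pdia3 (0.845).

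The rest of the pathway was read from 7 lists holding 80 further genes, of which 78 passed the filter on low counts. In competent vs. non-competent oocytes 11 of these were called lower and 0 higher by edgeR. That is 14.1% of those tested beside the 15% over all genes tested, so the share was near the background. By the adjusted p alone 17 were lower and 12 higher, 37.2% of those tested beside 30.7% of all genes, and the median log2 fold change was -0.04. Without the 3 pools of highest granulosa sum 9 were called, beside 10.7% of all genes tested in that fit.

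Among 14 genes of growth factor input, 3 were called lower and 0 higher. Irs2, an adaptor of the insulin and IGF receptors, fell by 1.62 ± 0.41 on the log2 scale (3.35 ± 1.22 to 1.09 ± 0.593 CPM, SD, n = 6, adjusted p = 0.00824), and without the 3 pools of highest granulosa sum the change was -1.44 and the call was lost (adjusted p = 0.0622), while with the granulosa marker level as a covariate it was kept (-1.48, adjusted p = 0.0341). Pik3r2, a regulatory subunit of PI3-kinase, fell by 0.85 ± 0.19 (adjusted p = 0.00416). Among 10 genes of energy and stress input, 3 were called lower and 0 higher. By the adjusted p alone Ddit4 (0.52 ± 0.13, adjusted p = 0.00845, edgeR), Stk11 (0.30 ± 0.07) and Prkag1 (0.32 ± 0.09) were higher. Beside the 3 called genes, Prkab2 (-0.45 ± 0.16) was lower by the adjusted p alone. Prkaa2, a catalytic subunit of the energy sensor AMPK, fell by 0.88 ± 0.12 from 103 ± 10.3 to 56.1 ± 11.5 CPM (adjusted p = 0.000163), and in the PND 40 pools it was 44.8 to 53.1 CPM. Ddit4l, a paralogue of the stress-induced inhibitor Ddit4, fell by 1.08 ± 0.39 (adjusted p = 0.0478), and without the 3 pools the value was -0.10 (adjusted p = 0.855).

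Among 8 other subunits and assembly factors of the complexes, 1 was called lower and 0 higher. Tti2, part of a chaperone complex for mTOR and related kinases, fell by 0.95 ± 0.20 from 9.34 ± 1.12 to 4.83 ± 1.49 CPM (adjusted p = 0.00285). By the adjusted p alone Mapkap1 (0.27 ± 0.06, adjusted p = 0.00435, edgeR) and Prr5 (0.41 ± 0.11, adjusted p = 0.0105) were higher. None of 10 genes of the GATOR and KICSTOR complexes, which relay amino acid supply, none of 19 genes of amino acid sensing, Rag GTPases and Ragulator and neither of the 2 other TSC and Rheb genes was called by edgeR. At an unadjusted p under 0.05 there were 3, 7 and 0 of them, and DESeq2 and limma each called 0 in these lists. The share of all genes at that unadjusted p is not given here. By the adjusted p alone Rragc (0.40 ± 0.07), Lamtor3 (0.49 ± 0.09), Flcn (0.35 ± 0.09) and Lamtor5 (0.48 ± 0.14) were higher. Fnip2 (-0.45 ± 0.13) and Wdr24 (-0.42 ± 0.14) were lower by it. Among 17 other downstream targets, of which 15 were tested, 4 were called lower and 0 higher. By the adjusted p alone Eef2k (0.30), Eif4e (0.27) and Eif4b (0.18) were higher. Beside the 4 called genes, Eif4g1 (-0.40), Pdcd4 (-0.47) and Ulk1 (-0.17) were lower by the adjusted p alone. Lpin1, a phosphatidate phosphatase and mTORC1 substrate, fell by 1.04 ± 0.18 (36.2 ± 11.0 to 17.6 ± 1.55 CPM, adjusted p = 0.000684). Larp1, which binds mRNAs of the translation machinery, fell by 0.72 ± 0.12 (adjusted p = 0.000608). The remaining 4 called genes, named after their values were seen, were Igf1r, Gsk3b, Maf1 and Sgk1. Rps6, the substrate that names S6 kinase, has annotated pseudogene copies that can take its reads, and its 0.583 CPM in non-competent and 0.627 CPM in competent pools are uncertain.

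**Figure D5:**
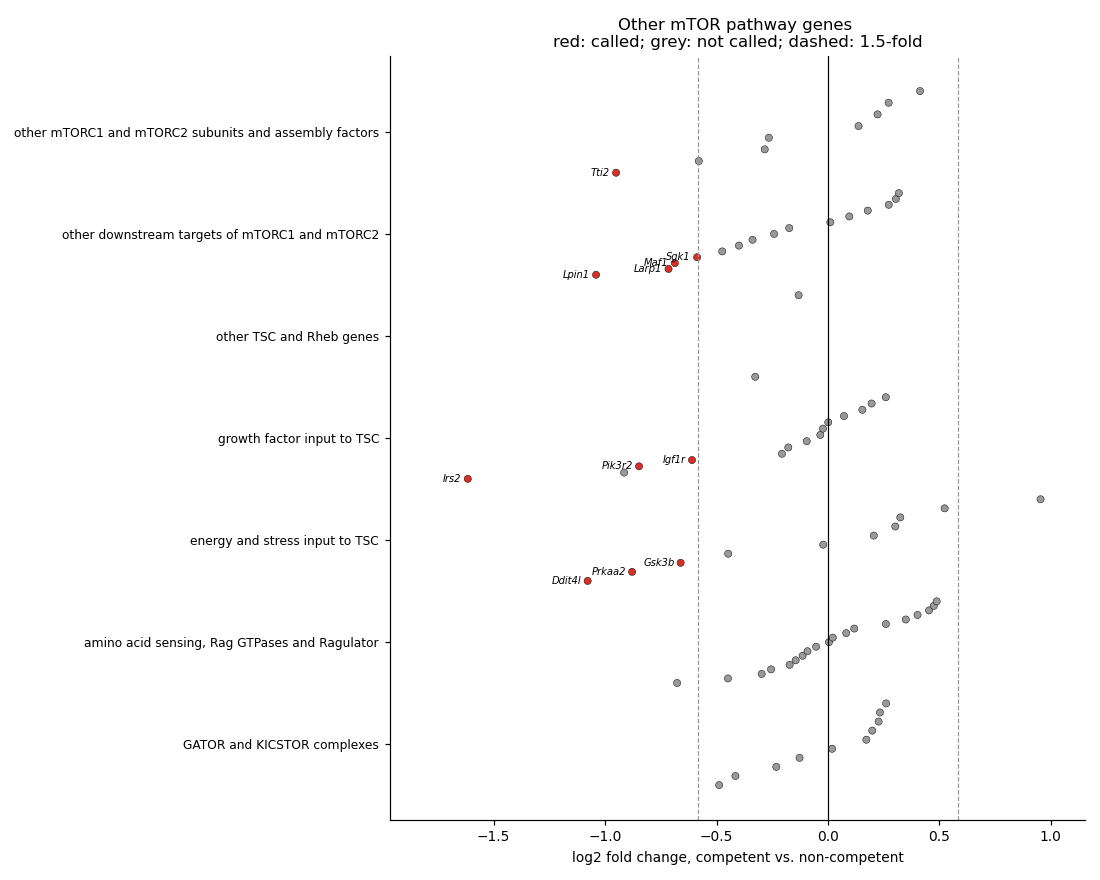
Log2 fold change in competent vs. non-competent oocytes (x axis) of the 78 further pathway genes that passed the filter, by list on the y axis. Red points are called genes with their names, grey points are not called, and dashed lines mark a 1.5-fold change. All 11 red points lie to the left of the lower line.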

How the data were processed

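The authors deposited raw counts, the reads counted on each of 24562 genes in 12 pools, and log2 values, made by scaling counts with a size factor for each pool, adding 1 and taking the log2. The submitters' processing notes name STAR, HTSeq and DESeq2 with the mouse build mm10. Versions, annotation and the strand setting are not given in the sources used here. Libraries were directional and depleted of ribosomal RNA. Groups came from the sample labels. Counts were filtered by edgeR 4.0.16 filterByExpr (minimum count 10), scaled by TMM (factors 0.955 to 1.07) and fitted by robust quasi-likelihood in R 4.3.3, once with 4 cohorts and once with 2 competence groups, with Benjamini-Hochberg adjustment over all 13943 genes tested. SEs are approximate (the absolute log2 fold change over the root of F). CPM uses TMM-scaled totals. Ratios used 0.5 added to each count, in Python with scipy. Gene models are GENCODE M21. Alternatives used DESeq2 1.42.0, limma 3.58.1 on the deposited log2 values, other scalings and filters, a granulosa covariate, a replicate block and leaving out pools. Scripts were tested on simulated data. The genes, lists, markers and tests were chosen with earlier results of these data known. All members were named, in each further list at most 2 called genes in each direction by size, and for each member the 2 genes of most similar pattern. Genes of the further lists given by the adjusted p alone were named after their values were seen. Reads carry no molecular identifiers. A further gene of the lists is not reported here.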

Additional observations from a re-analysis of the deposited data

How the results depend on the processing

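The count of members called in competent vs. non-competent oocytes was 2 by edgeR (15% of all genes tested) and 8 without the fold-change criterion (30.7%). It was 1 without PND 13 pools 1 and 3 (9.69% of all genes) and 1 without the 3 pools of highest granulosa sum (10.7%). When each pool was left out it was 2 to 3 (11.9% to 15.6% of all genes). Mlst8 was the member lost without the doubted pools, and Eif4ebp2 was the member gained when single pools were left out. Without the fold-change criterion the members called against PND 13 were 6 for PND 16 large (25.6% of all genes) and 5 for PND 40 (33.1%). Against PND 16 small they were 4 for PND 16 large (12.3%) and 7 for PND 40 (30.2%). In competent vs. non-competent oocytes 29 further pathway genes were then called (30.7% of all genes). Leaving out each pool gave 0 to 1 members called in PND 16 small (0.0281% to 5.7% of all genes) and 3 to 4 in PND 40 (13.6% to 20.4%) against PND 13. Against PND 16 small it gave 0 to 1 in PND 16 large (2.33% to 7.99%) and 1 to 2 in PND 40 (12.9% to 17.8%). In competent vs. non-competent oocytes it gave 9 to 12 further pathway genes (11.9% to 15.6% of all genes). Rictor, at a log2 difference of 0.01, took the opposite sign with total counts alone (-0.023), with the granulosa covariate (-0.0467), without PND 13 pools 1 and 3 (-0.0715), without the 3 pools (-0.0764), and when single pools were left out (-0.0384 to 0.0467). The Tsc1 to Tsc2 log2 difference ranged from -0.0316 to 0.0696 when a pool was left out. The causes were not tested.

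The replicate numbers gave no sign of pairing the pools. Deviations of same-numbered pools correlated at -0.44 to 0.08 (median -0.004), and those of other-numbered pools at -0.32 to 0.46 (median 0.007). Deviations from a cohort mean are tied to each other, so this check cannot exclude a pairing. With the replicate number as a block 2 members were called in competent vs. non-competent oocytes (13.3% of all genes tested), with 11 further pathway genes. In the pairwise comparisons it was between 0 and 3 members (0.0717% to 17.3% of all genes). The block changed no call of a member.

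Eif4ebp1 had 12 to 60 counts per pool, and what part of its spread comes from depth was not tested. Each pairwise comparison rests on 3 pools per cohort.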
